A study of Mus musculus with 12 samples.

Results

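Neutrophil granule genes encode the enzymes and antimicrobial proteins that granulocytes store. The 10 genes of this group are Mpo, Elane, Prtn3, Ctsg, Ms4a3, Ltf, Camp, Ngp, S100a8 and S100a9. They were listed by name, and all 10 were found among 21887 protein-coding genes of RefSeq (GRCm38.p6, with mm10 coordinates). Granules form in an order: the primary (azurophil) granules are filled in promyelocytes, and the secondary and later granules are filled as these cells mature. The genes were therefore split by stage into 5 primary stage genes (Mpo, Elane, Prtn3, Ctsg and Ms4a3) and 5 later stage genes (Ltf, Camp, Ngp, S100a8 and S100a9). Ms4a3 encodes a membrane protein of granulocyte-monocyte progenitors, and S100a8 and S100a9 encode cytosolic proteins. These 3 genes were placed by the stage at which they are expressed, not as granule contents.

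Trimethylated lysine 4 of histone H3 (H3K4me3) marks active or poised promoters, usually as a short peak over the start of a gene, and spreads into the gene body at some highly transcribed genes that define a cell type. Trimethylated lysine 27 (H3K27me3) is laid down by Polycomb repressive complex 2 and marks silenced genes. Both marks were mapped by chromatin immunoprecipitation and sequencing in bone marrow cells that the labels call cKit+ and the series design Lin-cKit+, a fraction rich in stem and progenitor cells. The knockout (KO) mice were Mx1Cre+ with a floxed Ints11 gene (written flox/fox in the labels), and the WT mice were littermates. All mice were C57BL/6, and their cells were sorted 4 days after poly(I:C), which KO and WT mice both received and which turns on Mx1Cre through interferon. Mx1Cre acts in many interferon-responsive cells and not only in blood cells, and neither ages nor the Cre status of the WT mice are given in the labels. Each mark had 2 KO libraries (KO_399 and KO_401) and 2 WT libraries (WT_407 and WT_409), and the numbers were read as mice.

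The data were 8 lists of peaks, 1 per library, and a value below is the number of bases under peaks ("covered length") within 5 kb of the gene span. The H3K4me3 lists held 25090 to 27676 peaks and the H3K27me3 lists 6542 to 11930. Every deposited fold was above 5, so a place without a listed peak may have held a weaker one. The reads expected at a position of background, recovered from the deposited values, were 2.65 in KO_399, 1.93 in KO_401, 2.23 in WT_407 and 1.94 in WT_409 for H3K4me3. A fold of 5 then took 13.6 to 17.2 reads. With 2 KO and 2 WT mice there are 6 labelings, so the two-sided exact permutation test cannot give a p below 2 in 6. The markers of stem and progenitor cells, Kit among them, had H3K4me3 in all 4 libraries at 9 of 9 genes, and the 6 markers of mature neutrophils had it too. The same was true of 64.3% of all protein-coding genes.

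Upstream sequence is shown for Elane and Prtn3, neighbours of the primary stage, and for Ltf and Ngp, later stage genes with large differences between libraries. Each is the 150 bases before the start site, 5′ to 3′ along the gene, from RefSeq (GRCm38.p6). Capitals mark GAGGAA, the core of the ETS motif bound by PU.1, and TTNCNNAA, a C/EBP motif, on either strand. The matches of these 2 motifs do not overlap each other.
Elane, chr10:79886162-79886311, plus strand: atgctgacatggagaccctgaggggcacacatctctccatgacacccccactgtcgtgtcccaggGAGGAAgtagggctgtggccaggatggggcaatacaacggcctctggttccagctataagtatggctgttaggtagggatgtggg
Prtn3, chr10:79879517-79879666, plus strand: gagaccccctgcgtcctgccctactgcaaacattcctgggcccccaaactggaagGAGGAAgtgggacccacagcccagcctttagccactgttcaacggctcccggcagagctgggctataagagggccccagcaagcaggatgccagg
Ltf, chr9:111019142-111019291, plus strand: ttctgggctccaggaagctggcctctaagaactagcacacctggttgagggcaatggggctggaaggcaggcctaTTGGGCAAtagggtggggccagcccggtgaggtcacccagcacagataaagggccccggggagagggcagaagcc
Ngp, chr9:110419658-110419807, plus strand: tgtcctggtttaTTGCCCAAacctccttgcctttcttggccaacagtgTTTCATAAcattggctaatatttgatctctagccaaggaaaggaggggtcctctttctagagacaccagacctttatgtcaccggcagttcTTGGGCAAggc

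In the 250 bases before the start site, GAGGAA was found on either strand at 4 of 5 primary stage genes and 2 of 5 later stage genes, and in 21.5% of 10583 promoters of the table. TTNCNNAA was found at 1 primary stage gene (Ms4a3) and 4 later stage genes (all but Camp), and in 37.7% of promoters. A RUNX motif (TGNGGT) was found at 3 of the 10 genes, against 38.3% of promoters. A MYB motif (AACNG) was found at 9, all but Ms4a3, against 74.3%, and it overlapped the ETS match of Ltf and a C/EBP match of S100a8. These matches are descriptions of the letters in the window, not of bound sites. The 10 promoters were poor in CpG. They held 0 (Ms4a3) to 7 (Ctsg) CpG in 250 bases with a median of 2.5, against a median of 7 over all 10583 promoters and of 14 over the 5935 whose genes had H3K4me3 in all 4 libraries.

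H3K4me3 lay over all 10 granule genes in each of the 4 libraries, as long peaks that ran from the start site into the gene. Over all protein-coding genes, 64.3% had the mark in all 4 libraries. The widest peak on a member was 2654 bp (Elane, KO_401) to 11829 bp (Ltf, WT_409) wide. It was wider than a median of 98.0% of the peaks of its own list, taken over the 40 pairs of a gene and a library. By the authors' −log10 q the same peaks were less extreme, with a median percentile of 65.25 and a range of 52.1 to 75.6 within their lists. The peaks held 59 to 204 reads at the summit. Covered length also ranked lower than peak width. Among the genes with H3K4me3 in the same library its median percentile was 93.55, with a range of 68.8 (Camp, WT_407) to 99.9 (Ltf, WT_409).

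The long peaks were mostly one-sided. From the start site they reached a median of 4524 bp downstream and 434.5 bp upstream over the 40 pairs. The reference was the genes of the promoter table with a peak over the start site, 5041 (KO_401) to 5262 (KO_399) per library. Their medians by library were 1310 to 1488 bp downstream and 669 to 744 bp upstream. In 37 of 40 pairs the downstream reach exceeded that of 90% or more of those genes, and the other 3 were Elane in KO_399, KO_401 and WT_409 (87.0% to 88.4%). The upstream reach was below the median of those genes in 31 of 40 pairs. It was above at Prtn3 in KO_399 (2812 bp) and WT_407 (2592 bp) and at Ltf in all 4 libraries (698 to 1925 bp). At S100a8 it was above in KO_399, KO_401 and WT_409 (1435 to 1558 bp). This reach ends where the peak over the start ends, so further peaks listed upstream are not part of it. At S100a9 the peak over the start began 31 bp before it in KO_399, 43 bp in KO_401, 24 bp in WT_407 and 65 bp in WT_409. The next S100a9 peak upstream lay at -1050 to -124 bp from the start in KO_399, -1038 to -161 bp in KO_401 and -1876 to -254 bp in WT_409. The span of 7 members (Elane, Prtn3, Ctsg, Camp, Ngp, S100a8 and S100a9, 964 to 3508 bp long) was covered from end to end in all 4 libraries. Among the 1004 genes of this length range with H3K4me3 in all 4 libraries, 15.4% to 19.0% were covered whole in a library.

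**Figure D1:**
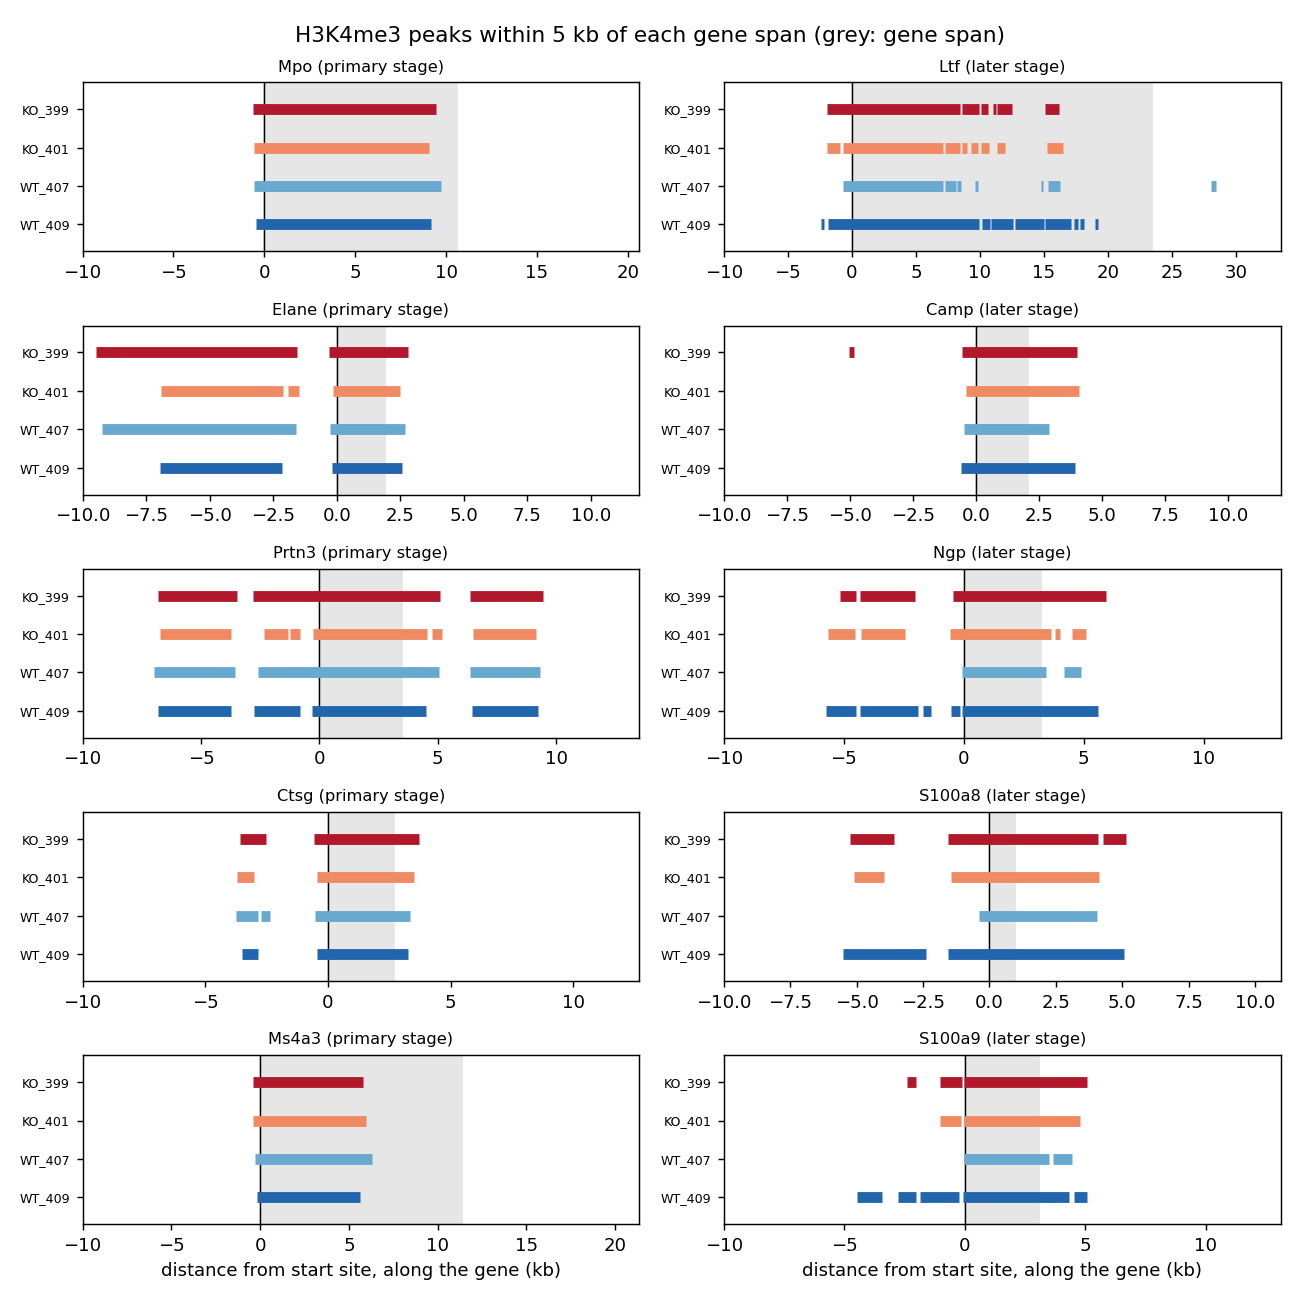
H3K4me3 peaks within 5 kb of each of the 10 genes, drawn as bars along the distance from the start site in kb (x axis, in the direction of the gene) for KO_399, KO_401, WT_407 and WT_409 (rows). Grey marks the gene span. The peaks run from the start into the gene, and the separate peaks before the start of Ngp, S100a8 and S100a9 are not listed in WT_407.

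The KO and WT values of H3K4me3 overlapped at every granule gene. In 0 of 10 members were both KO libraries above both WT libraries, and in 0 of 10 were both below, while 22.1% and 3.63% of the 15167 genes with H3K4me3 in any library did so. The exact permutation p was 0.667 or 1 for each of the 10 members. The mean over the 5 primary stage genes was 7626 ± 433 bp in KO and 7504 ± 583 bp in WT (SD, n = 2 each), a difference of 122 bp (exact permutation p = 0.667). Over the 5 later stage genes it was 8069 ± 766 bp in KO and 7788 ± 3390 bp in WT (SD, n = 2 each), a difference of 281 bp (exact permutation p = 1). Both differences were smaller than the spread between mice, and both turned negative when each library was scaled to its mean over all genes (-405 and -242 bp). With the same covered length taken from each list, the later stage difference was -499 bp. Without KO_399 they were -184 and -261 bp, without WT_407 534 and -2120 bp, and without WT_409 -290 and 2680 bp.

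**Figure D2:**
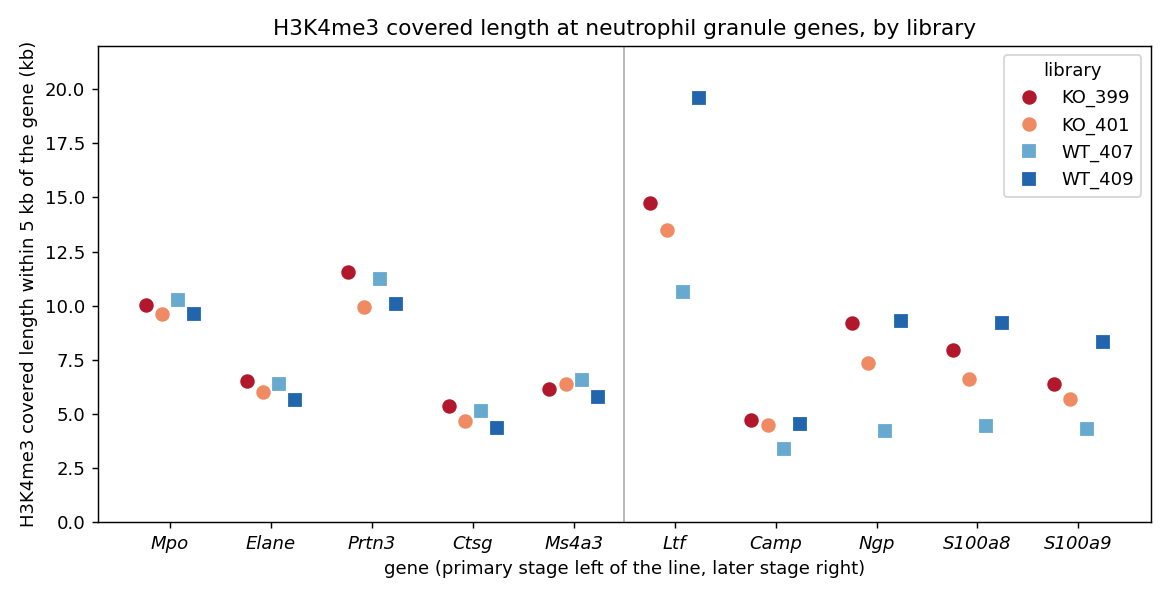
H3K4me3 covered length within 5 kb of each gene (y axis, kb) for the 10 genes (x axis), with 1 point per library, KO_399 and KO_401 as circles left of WT_407 and WT_409 as squares. The 4 points lie close together at the primary stage genes, whereas at the later stage genes WT_407 is the lowest point.

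Among the primary stage genes, Mpo encodes myeloperoxidase, the enzyme that makes hypochlorous acid. It lies on chromosome 11 from 87793784 to 87804412 on the plus strand. Its covered length was 10044 bp in mouse KO_399 and 9605 bp in KO_401, against 10282 bp in WT_407 and 9617 bp in WT_409. A single unbroken peak made up this length in every library, from 458 to 617 bp before the start to 9066 to 9713 bp after it. This was 85.3% to 91.4% of the gene span, and at least 99.9% of the peaks in each list were narrower. The 4 values differed by a factor of 1.07, less than the median of 1.24 over the 14067 genes with H3K4me3 in all 4 libraries.

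Prtn3 (proteinase 3) and Elane (neutrophil elastase) are serine proteases of the primary granules and neighbours on chromosome 10, from 79879667 to 79883174 and from 79886312 to 79888216, both on the plus strand. The gap between them is 3138 bp, so their windows share peaks and are not independent. Prtn3 had 11553 bp in mouse KO_399 and 9949 bp in KO_401, against 11230 bp in WT_407 and 10068 bp in WT_409. Elane had 6542 bp in mouse KO_399 and 5994 bp in KO_401, against 6368 bp in WT_407 and 5625 bp in WT_409. At both genes KO_399 was highest and WT_407 next, so the genotypes overlapped. The peak over Prtn3 had a width of 7890 bp in KO_399 and 4835 bp in KO_401, against 7654 bp in WT_407 and 4822 bp in WT_409. In KO_401 and WT_409 the stretch before the start was listed as separate peaks of 999 and 417 bp and of 1935 bp. The 2 libraries with the unbroken peak had the higher background reads (2.65 and 2.23, against 1.93 and 1.94), and the part of depth in this was not tested.

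Ctsg (cathepsin G), another serine protease, lies on chromosome 14 from 56099885 to 56102574 on the minus strand. It had 5348 bp in mouse KO_399 and 4656 bp in KO_401, against 5119 bp in WT_407 and 4349 bp in WT_409. The width of its main peak was 4293 bp in KO_399 and 3947 bp in KO_401, against 3853 bp in WT_407 and 3710 bp in WT_409. A window of 2 kb, or peaks of a fold of at least 10 alone, left this main peak, so that Ctsg was then longer in both KO libraries by a mean of 338 bp, the single member to separate in these settings. The 12 other genes of the Ctsg cluster that were looked up, the granzymes Gzmb to Gzmg and Gzmn and the mast cell proteases Mcpt1, Mcpt2, Mcpt4, Mcpt8 and Cma1, had no H3K4me3 and no H3K27me3 in any library.

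Ms4a3, on chromosome 19 from 11629499 to 11640851 on the minus strand, had 6173 bp in mouse KO_399 and 6395 bp in KO_401, against 6582 bp in WT_407 and 5801 bp in WT_409. It was a single peak over 49.6% to 55.6% of the gene, at its 5′ part. At the other 4 primary stage genes the lowest 2 libraries were KO_401 and WT_409, the libraries with the fewest background reads, and this held for 30.9% of all genes with H3K4me3. KO_399 was highest at 3 of 5 primary stage genes and WT_407 at 2 (Mpo and Ms4a3), against 72.4% and 9.63% of all genes.

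The later stage genes varied more, and the variation lay between the WT mice. WT_407 had the least H3K4me3 at 5 of 5 later stage genes, against 34.0% of all genes with the mark and 0 of 5 primary stage genes. WT_409 had the most at 4 of 5 (all but Camp), against 13.7% of all genes. The order WT_407, KO_401, KO_399, WT_409 from low to high was found at these 4 genes, so both KO mice lay between the WT mice, and at 5.16% of all genes. WT_407 was the lowest at all 5 in each of 7 other settings of window, peak selection, overlap and scaling. With the same covered length per list, the later stage mean of KO_399 was below that of KO_401 (6422 against 7527 bp).

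Ltf encodes lactoferrin, the iron-binding protein of the secondary granules, on chromosome 9 from 111019292 to 111042766 on the plus strand. It had 14751 bp in mouse KO_399 and 13510 bp in KO_401, against 10612 bp in WT_407 and 19588 bp in WT_409. Within its span of 23475 bp, 12826 bp lay under peaks in KO_399 and 11739 bp in KO_401, against 9569 bp in WT_407 and 17461 bp in WT_409, which is 40.8% (WT_407) to 74.4% (WT_409) of the gene. The mark was broken into 6 peaks in KO_399 and 8 in KO_401, against 7 in WT_407 and 9 in WT_409.

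Camp and Ngp encode cathelicidin-type antimicrobial and neutrophilic granule protein, 2 secondary granule proteins of related sequence. Camp lies on chromosome 9 from 109847377 to 109849456 on the minus strand. It had 4745 bp in mouse KO_399 and 4476 bp in KO_401, against 3391 bp in WT_407 and 4533 bp in WT_409. Ngp lies 570 kb away, from 110419808 to 110423012 on the plus strand. It had 9197 bp in mouse KO_399 and 7358 bp in KO_401, against 4202 bp in WT_407 and 9296 bp in WT_409. Here a group of peaks before the start, with widths of 687 and 2302 bp in KO_399, 1117 and 1848 bp in KO_401 and 1240 and 2434 bp for the outer pair in WT_409, had no listed counterpart in WT_407.

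S100a8 and S100a9 encode the calcium-binding subunits of calprotectin and are 22.6 kb apart on chromosome 3. S100a8, from 90669071 to 90670034 on the plus strand, had 7957 bp in mouse KO_399 and 6602 bp in KO_401, against 4426 bp in WT_407 and 9202 bp in WT_409. A separate peak more than 2 kb before its start had a width of 1659 bp in KO_399, 1135 bp in KO_401 and 3122 bp in WT_409, and was not listed in WT_407. S100a9, from 90692630 to 90695721 on the minus strand, had 6405 bp in mouse KO_399 and 5690 bp in KO_401, against 4324 bp in WT_407 and 8306 bp in WT_409. Separate peaks before the start of S100a9 were likewise listed in KO_399, KO_401 and WT_409 and not in WT_407. At both genes the KO values lay within the range of the WT values. Of the 15 genes named S100a in the table, 11 had H3K4me3 in all 4 libraries, as did 64.3% of all protein-coding genes. S100a7a, next to S100a8, had 2429 bp in mouse KO_399 and 2143 bp in KO_401, against 1108 bp in WT_407 and 4117 bp in WT_409.

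The ratio of WT_409 to WT_407 did not overlap between the 5 primary and the 5 later stage genes of the group. It was 0.85 (Ctsg) to 0.935 (Mpo) at the primary stage genes and 1.34 (Camp) to 2.21 (Ngp) at the later stage genes, with medians of 0.883 and 1.92. Over the 14067 genes with H3K4me3 in all 4 libraries the median was 1.02, and the 5 later stage genes stood at percentiles 93.9 to 99.3 of that distribution and the primary stage genes at 11.9 to 25.6. In longer lists of genes of each stage the ratio overlapped between the stages, at 0.684 to 1.32 for other primary stage genes (median 1.01) and 0.904 to 3.57 for other later stage genes (median 1.18). The B lymphoid markers with H3K4me3 in all 4 libraries had a median ratio of 1.9, near that of the 5 later stage genes. The later stage mean divided by the primary stage mean was 1.086 in KO_399 and 1.028 in KO_401, against 0.681 in WT_407 and 1.436 in WT_409. The primary minus later difference was -443.2 ± 333 bp in KO and -283.9 ± 3970 bp in WT (SD, n = 2 each, exact permutation p = 1), and the genotypes overlapped. The background reads were 2.23 in WT_407 and 1.94 in WT_409, and the part of depth in these values was not tested. In a bulk sample fewer cells of a type and less of the mark per cell cannot be told apart.

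**Figure D3:**
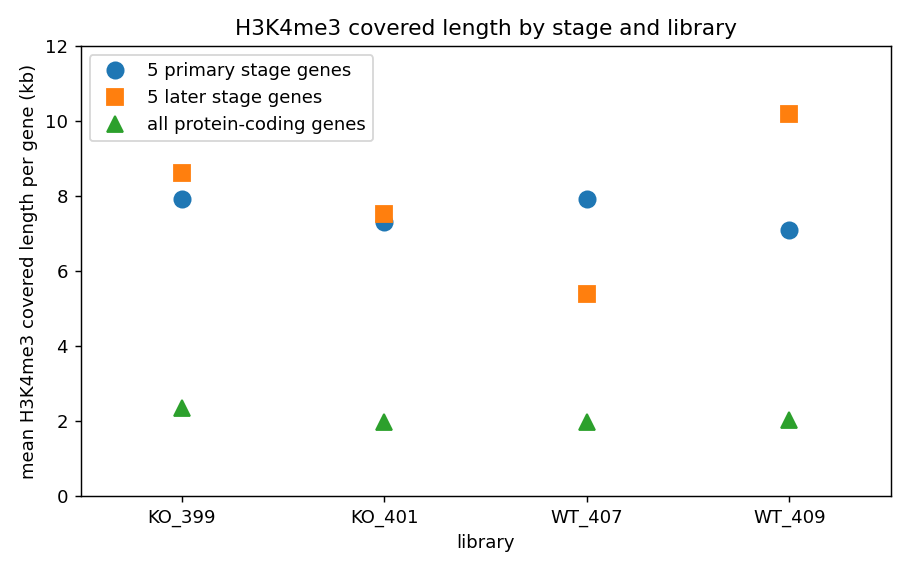
Mean H3K4me3 covered length per gene (y axis, kb) for the 5 primary stage genes, the 5 later stage genes and all protein-coding genes in KO_399, KO_401, WT_407 and WT_409 (x axis). The later stage mean is 8611 and 7527 bp in KO_399 and KO_401 and 5391 and 10180 bp in WT_407 and WT_409, while the primary stage mean stays between 7092 and 7932 bp.

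Other genes of the neutrophil programme were looked up from lists chosen by their known roles. Of 17 other later stage genes, 16 had H3K4me3 in all 4 libraries and Olfm4 had none. WT_407 was the lowest at 14 of these 16, against 34.0% of all genes with the mark, the exceptions being Itgam (integrin alpha M, lowest in KO_401) and Orm1 (orosomucoid, lowest in WT_409). Cybb, a subunit of the NADPH oxidase, had 9503 bp in mouse KO_399 and 7270 bp in KO_401, against 5548 bp in WT_407 and 12054 bp in WT_409. Mmp8, the neutrophil collagenase, had 3689 bp in mouse KO_399 and 2938 bp in KO_401, against 1145 bp in WT_407 and 4088 bp in WT_409. Orm1 was the single gene of this list with both KO libraries above both WT libraries (3401 and 3303 bp in KO, against 2876 and 2600 bp in WT), and none had both below. Over all genes with H3K4me3, 22.1% had both above and 3.63% both below.

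All 11 other primary stage genes had H3K4me3 in all 4 libraries, against 64.3% of all protein-coding genes. WT_407 was the lowest at 4 of these 11, a share near the 34.0% of all genes with the mark. Serpinb1a, an inhibitor of neutrophil serine proteases, had 7723 bp in mouse KO_399 and 7658 bp in KO_401, against 5453 bp in WT_407 and 6951 bp in WT_409. Cd63, a membrane protein of primary granules, was also longer in both KO libraries, with 8548 and 7962 bp in KO, against 6363 and 7772 bp in WT. Gusb, a lysosomal glucuronidase, was shorter in both, with 2521 and 2465 bp in KO, against 2706 and 2711 bp in WT. Of these 11 genes, 2 were thus longer and 1 shorter in both KO libraries. Over all genes with H3K4me3 the shares were 22.1% and 3.63%. Of the 8 regulators of granulocytes, 6 had their lowest value in WT_407, against 34.0% of all genes with the mark. Both KO libraries were longer at 2 of the 8, a share near the 22.1% of all genes with H3K4me3. Gfi1, a repressor needed for neutrophil development, had 11623 and 10363 bp in KO, against 9614 and 9274 bp in WT. Csf3r, the receptor of G-CSF, had 8913 and 8022 bp in KO, against 6173 and 7848 bp in WT. Cebpe, the C/EBP factor that drives secondary granule genes, had 9428 bp in mouse KO_399 and 9562 bp in KO_401, against 8869 bp in WT_407 and 9589 bp in WT_409.

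Markers of other cells moved with the difference between the WT mice in part. The 6 mature neutrophil markers, of which Mmp9 is also on the later stage list, had their lowest value in WT_407 at 6 of 6 genes (34.0% of all genes), with a list mean of 6278 bp in KO_399 and 5504 bp in KO_401, against 4710 bp in WT_407 and 6155 bp in WT_409. The B lymphoid markers were highest in WT_409 at 8 of 9 genes and the erythroid markers at 5 of 7, against 13.7% of all genes. The B lymphoid list averaged 2435 bp in KO_399 and 1429 bp in KO_401, against 1329 bp in WT_407 and 4133 bp in WT_409. The mean of the monocyte markers went the other way between the WT mice (3494 bp in KO_399 and 2144 bp in KO_401, against 3314 bp in WT_407 and 2564 bp in WT_409). Ly6c2 of this list did not, with 4071 bp in WT_407 and 5182 bp in WT_409. Of the mast cell and basophil markers Mcpt8, Cpa3, Fcer1a, Ms4a2 and Prss34 had none in any library. The stem and progenitor list averaged 6956 bp in KO_399 and 5731 bp in KO_401, against 5438 bp in WT_407 and 5304 bp in WT_409, and Cd34, Gata2 and Mecom, 3 of its 9 genes, were longer in both KO libraries, where 22.1% of genes did so over the whole table. Also longer in both were Ly6g and Cxcr2 (2 of 6 mature neutrophil markers), Ly6c2 (1 of 6 monocyte markers) and Gata3 (1 of 8 T and NK markers), counts to be read against the same 22.1%. F13a1 of the monocyte markers was shorter in both, as were 3.63% of all genes with H3K4me3. The part of other cells in the values at the granule genes was not tested.

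**Figure D4:**
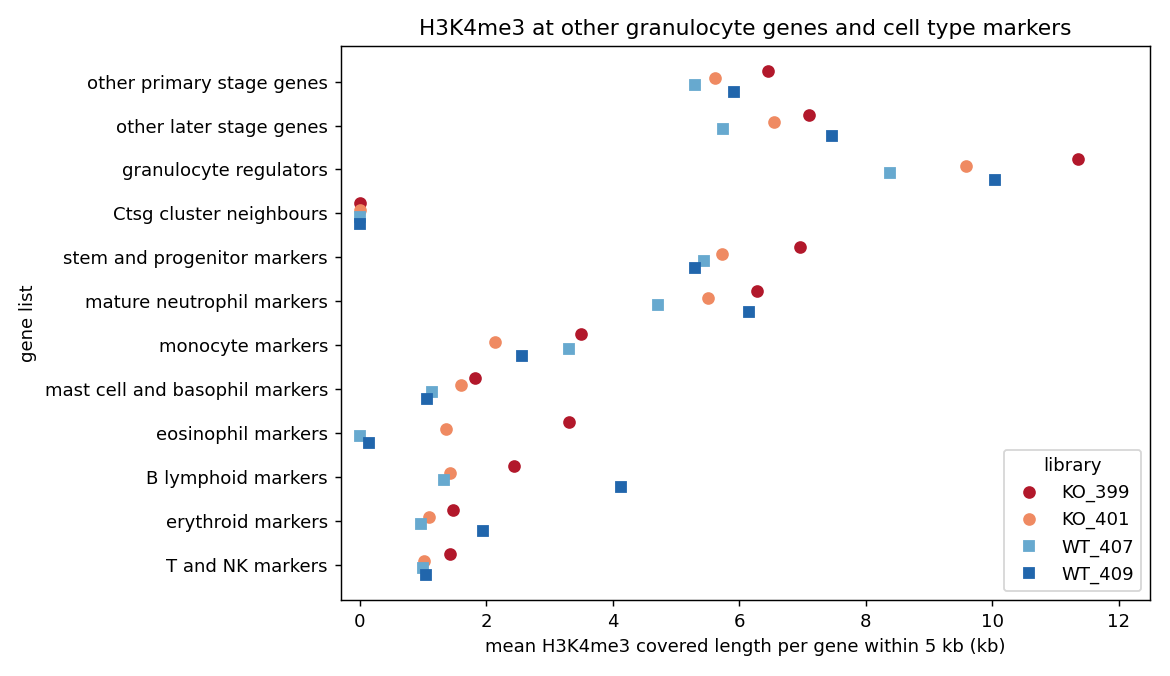
Mean H3K4me3 covered length per gene within 5 kb (x axis, kb) for 12 gene lists (y axis), with 1 point per library, KO_399 and KO_401 as circles above WT_407 and WT_409 as squares. WT_407 has the lowest mean of the other later stage genes and of the mature neutrophil markers. It is also lowest for the other primary stage genes, the granulocyte regulators and the eosinophil, B lymphoid, erythroid and T and NK markers. WT_409 has the highest mean of the other later stage genes and of the B lymphoid and erythroid markers.

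H3K27me3 was absent from the granule genes. In 10 of 10 members no H3K27me3 peak lay within 5 kb in any of the 4 libraries. The same was true of 70.2% of all protein-coding genes and of 67.5% of the genes with H3K4me3 in all 4 libraries, so this is close to the state of most genes. Because no member had the mark, none could be among the genes with less of the mark in KO_399 and KO_401 than in either WT library, a pattern of 70.0% of the 6512 genes with H3K27me3 in any library. The nearest H3K27me3 peak lay 12.9 kb (Mpo in WT_407) to 759 kb (Ms4a3) away. At Mpo the nearest peak was 293 kb away in KO_399 and KO_401, against 12.9 kb in WT_407 and 28.7 kb in WT_409. The H3K27me3 lists were shorter in KO, with 6542 peaks in KO_399 and 7653 in KO_401, against 11930 in WT_407 and 9838 in WT_409. The part of list length in these distances was not tested. Lpo, the lactoperoxidase gene beside Mpo, had 1384 bp of H3K27me3 in WT_407 and none in the other libraries.

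Few of the other granule genes carried H3K27me3. Of the 17 other later stage genes only Mmp9, the neutrophil gelatinase of the tertiary granules, had it, with 5568 bp in KO_399 and 9288 bp in KO_401, against 21049 bp in WT_407 and 10866 bp in WT_409. Of the 11 other primary stage genes, Cd63 had 1230 bp in mouse KO_399 and 4984 bp in KO_401, against 5193 bp in WT_407 and 7528 bp in WT_409. Prss57, a serine protease of the primary granules, had none in KO_399 and 2970 bp in KO_401, against 2840 bp in WT_407 and 3092 bp in WT_409. Mmp9 and Cd63 thus had less H3K27me3 in both KO libraries, as did most genes with the mark.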

How the data were processed

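The submitters' processing notes name MACS2, Bowtie2, SAMtools, Trim Galore, FastQC and deepTools, with build mm10 and no versions. Per the labels, formaldehyde (1%) fixed the chromatin, fragments averaged 100 to 300 bp and the read length was 75 bp. The authors deposited 1 narrowPeak list per immunoprecipitated library, so peaks were not called on pooled mice. The deposited columns are a score per peak, the fold of the summit pileup over background, and −log10 of the p-value and q-value. These are the authors' values and served to describe, rank and filter the peaks of 1 list at a time. The 4 input libraries were not used here, and use of input in peak calling is not given in the sources read.

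Covered bases were counted per library within 5 kb of the gene span with Python 3.11.15, numpy 2.4.6 and pandas 2.3.3, for 21887 protein-coding genes. Start sites came from the RefSeq promoter table (10583 genes whose promoter matched the end of the gene span). Background and summit reads were solved from the deposited fold and −log10 p (within 0.001 for 100% of summits). The counting was checked on simulated peaks. KO and WT were compared over libraries by a two-sided exact permutation test with 6 labelings. No adjusted p was used, and libraries were not scaled unless stated. The alternatives were windows of 2 and 10 kb, equal peak numbers or covered length, a fold of at least 10, an overlap of at least 200 bp, scaling to the mean over all genes, and leaving out each library. Genes outside the group could be named when the KO and WT values did not overlap, up to 5 per list and mark. Exceptions are the Ctsg cluster genes, Cybb, Mmp8, S100a7a, Cebpe, Lpo, Prss57, Olfm4, Itgam, Kit, Ear1 and the mast cell and basophil genes, picked with their values in view. The members and lists were chosen with earlier results of these data known. Nothing in the labels says how mice were assigned to preparation days, so effects of genotype and of preparation day cannot be told apart. The p-values only set the observed difference against the other labelings of these mice.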

Additional observations from a re-analysis of the deposited data

How the results depend on the processing

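KO minus WT differences in mean H3K4me3 covered length did not keep their sign. Scaled to the mean over all genes, they were -405 bp for primary and -242 bp for later stage genes. With the same covered length per list, the later stage difference was -499 bp and the KO minus WT difference of primary minus later genes 515 bp. Leaving out 1 library each, they ranged from -290 to 534 bp for primary stage genes (negative without KO_399 or WT_409) and from -2120 to 2680 bp for later stage genes (negative without KO_399, -261 bp, or WT_407). The KO minus WT difference of primary minus later genes was -159 bp, and ranged from -2970 to 2650 bp without 1 library (positive without KO_399, 76.5 bp, and without WT_407). Windows of 2 and 10 kb, equal peak numbers, a fold of at least 10 and an overlap of at least 200 bp kept the sign of all 3 differences. No setting could pass a threshold, since the smallest exact permutation p is 2 in 6. The causes of the changes were not tested.

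The count of members longer in both KO libraries was 0, and 1 (Ctsg) with a 2 kb window and with a fold of at least 10. It was 0 to 5 without 1 library, and the count of those shorter was 0 to 4, where fewer libraries are compared. H3K27me3 was 0 at all 10 members in every setting, the 10 kb window included. No paired analysis was possible because the KO and WT mice share no replicate number. The lists have a limit: a stretch under 5-fold is not listed. Background reads in H3K4me3 ranged from 1.93 (KO_401) to 2.65 (KO_399), and the part of depth in the lists was not tested.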

Other observations

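Eosinophil granule genes, which were looked up as markers of another granulocyte, had H3K4me3 in both KO mice and little or none in WT. Epx, eosinophil peroxidase, lies on chromosome 11 from 87863997 to 87875536 in the same cluster as Mpo and Lpo. It had 4454 bp in mouse KO_399 and 2079 bp in KO_401, against none in WT_407 and WT_409. Prg2, the major basic protein of eosinophil granules, had 4016 bp in mouse KO_399 and 2644 bp in KO_401, against none in WT_407 and 615 bp in WT_409. Prg3, its homologue beside it on chromosome 2, had 4753 bp in mouse KO_399 and 761 bp in KO_401, against none in either WT library. Ear1, an eosinophil ribonuclease with near-identical copies, had none in any library. These 3 of 4 genes did not overlap between genotypes in this direction, as did 22.1% of all genes with H3K4me3, and the mean of the list was 2338 ± 1370 bp in KO and 76.88 ± 109 bp in WT (SD, n = 2 each, exact permutation p of 2 in 6, the smallest possible). The background reads were 2.65 in KO_399 and 1.93 in KO_401, against 2.23 in WT_407 and 1.94 in WT_409, and the part of depth in these values was not tested. Prg2 and Prg3 are neighbours, so they are not independent. No eosinophil marker had H3K27me3 in any library, and the part of eosinophil-lineage cells in these values was not tested.

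Gata2, a transcription factor of stem cells, mast cells and basophils, also had more H3K4me3 in both KO libraries, with 10923 bp in mouse KO_399 and 9598 bp in KO_401, against 6872 bp in WT_407 and 6373 bp in WT_409. F13a1, a coagulation factor gene of monocytes, had less, with 1458 bp in mouse KO_399 and 1398 bp in KO_401, against 2968 bp in WT_407 and 2153 bp in WT_409.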
